A study of Drosophila melanogaster with 12 samples.

Results

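The heads of flies from the insertion lines BG02514 and BG02257, 8 arrays between them, were compared with heads of the line Canton S B on 4 arrays, out of 12 arrays in all. The members are these arrays, placed by the line and sex named in their labels, and every one of the 13966 non-control probe sets was compared. Each line gave 2 arrays of females and 2 of males. RNA was measured on Affymetrix arrays, on which a probe set of short oligonucleotides reports 1 transcript or a group of transcripts as a Signal, a relative intensity on a linear scale.

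The insertion lines of Drosophila melanogaster each carry P{GT1}, a gene-trap transposon, and Canton S B is a wild-type line. The sources used here give neither the sites of the insertions nor how alike the lines are outside them, so an effect of an insertion and a difference of genetic background cannot be told apart in this comparison. Flies of the 3 lines were kept at the same time at 25 °C, 70% humidity and 12 h of light per day. Heads were taken 5 to 7 days after eclosion, and a sample pooled the heads of 100 flies of 1 sex. The labels number the BG02257 male arrays both as 1, so they are called 1a and 1b, and they may be repeat arrays of 1 sample. The numbers in the array titles run consecutively by line, and the labels do not say what they stand for. If they mark an order of handling, that order and line cannot be told apart.

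Several of the genes found below act in the compound eye, which makes up much of the fly head. Photoreceptors capture light in the rhabdomere, a stack of microvilli in which rhodopsin, phospholipase C and the TRP channels lie close together, and adhesion proteins hold the stack in order. The red pigments of the eye, drosopterins, are made from pteridines in the surrounding cells, and a fly line's eye colour follows from alleles of such genes. Tre1, a G protein-coupled receptor, and Gr5a, a taste receptor for the sugar trehalose, give the series its title.

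The tissue named in the labels was checked against marker lists. All 24 measured phototransduction genes of 36 listed had a mean Signal at or above 128.3, the 40th percentile of all probe sets, and so did 25 of 26 genes of neurons and synapses. Of the 30 measured genes of testis and accessory gland, and of the 22 of ovary and egg, 6 in each list reached that level. Gut digestive enzymes had 24 of 51 measured genes there, and over all genes it was 6778 of 10843. The median Signal of the arrays lay between 182.9 and 206.5. Spearman's rho across probe sets was 0.94 to 0.96 between arrays of 1 group and 0.94 to 0.96 between arrays of different groups. The 3'/5' ratios of control transcripts, a sign of RNA integrity, averaged 2.14 ± 0.14 in insertion-line heads and 2.24 ± 0.40 in Canton S B heads for GAPDH on the log2 scale (SD, n = 8 and 4). The exact permutation p for this and for 2 other controls lay between 0.303 and 0.533, and was 0.533 for each after adjustment. Nothing in the labels says whether the samples came from separate cultures, so p-values measure only the spread between these samples.

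Few transcripts were found to differ between the insertion lines and Canton S B. Differences were tested with limma on log2 Signal, with line and sex in the model and equal weight for both insertion lines. A probe set is called where the Benjamini-Hochberg adjusted p over all 13966 was under 0.05. The test called 12 probe sets (0.0859% of those tested), which belong to 9 genes. In insertion-line heads 4 were higher (0.0286%) and 8 were lower (0.0573%). At an unadjusted p under 0.05 there were 720 probe sets (5.16%), where 698 would be expected by chance. The median log2 difference over all probe sets was -0.01, and the 10th and 90th percentiles were -0.41 and 0.40. The called differences had an absolute log2 size of at least 0.63, and their mean Signals, 518 to 9116, all lay above the 40th percentile. In each of the 12, both lines lay on the same side of Canton S B. On simulated arrays this contrast called 49% of log2 changes of 1, so real differences of that size may be uncalled.

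**Figure D1:**
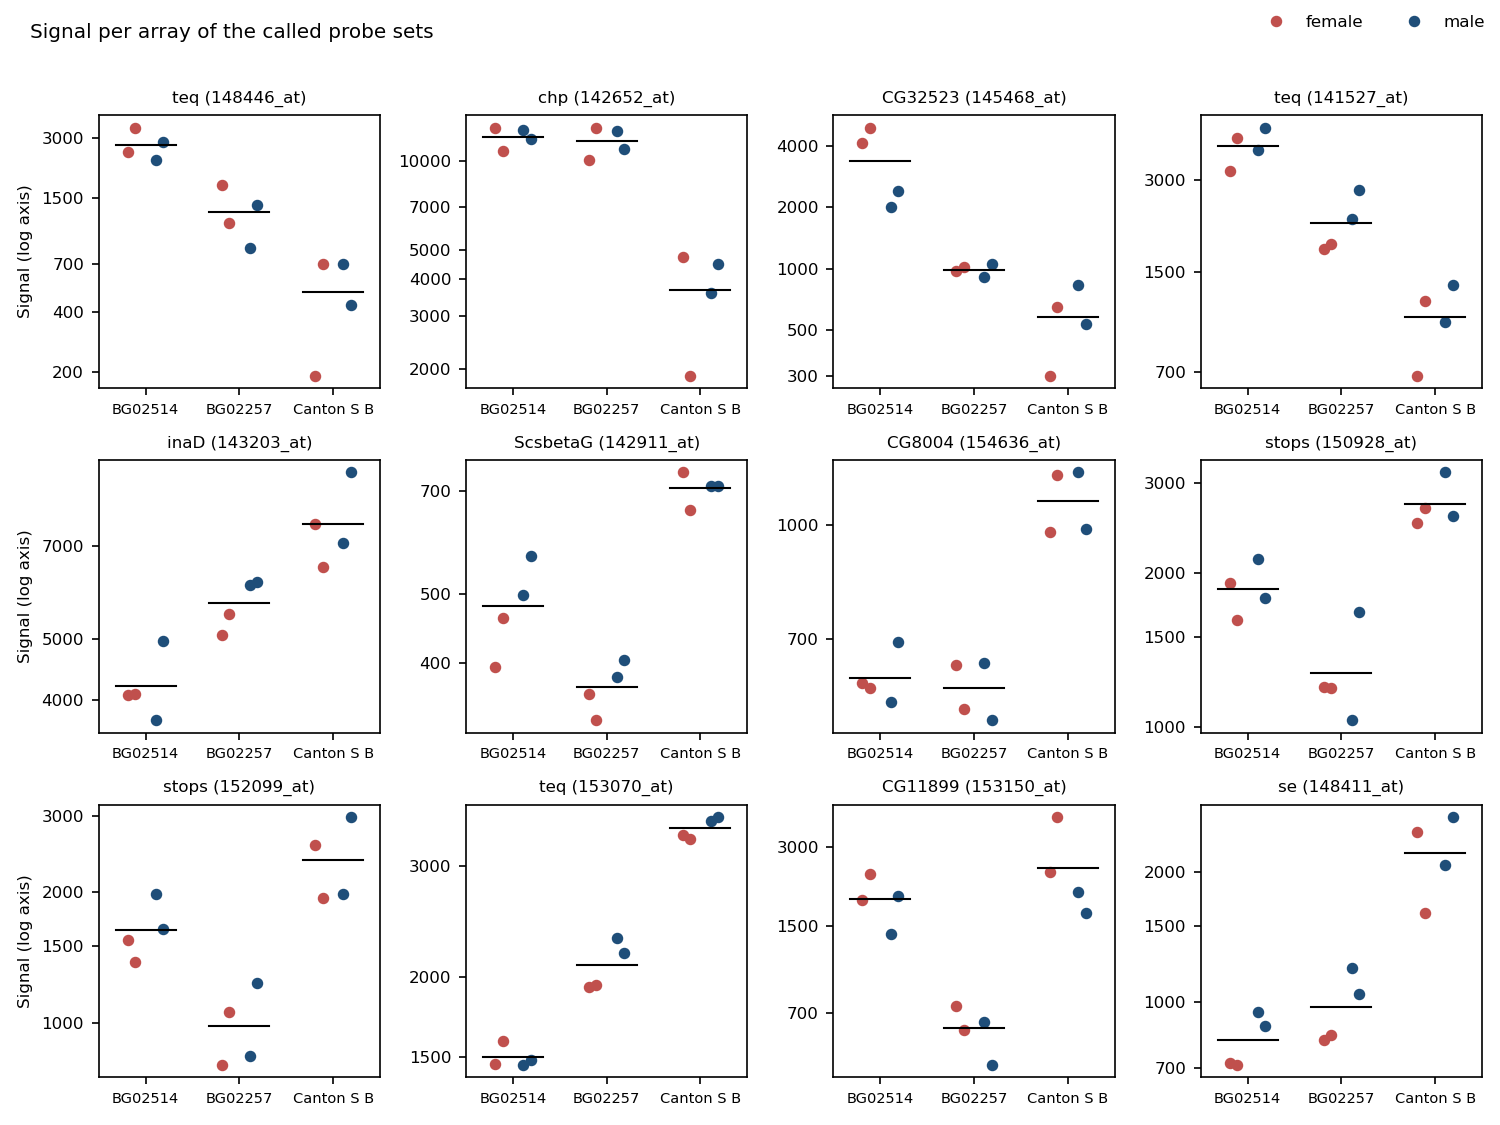
Signal (vertical axis, log scale) on each array of the 12 called probe sets, with BG02514, BG02257 and Canton S B from left to right. Red points are females, blue points are males and horizontal lines are line means. Within each sex both insertion lines sit apart from Canton S B in all panels except that of CG11899, where BG02514 overlaps it.

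Of the 4 higher probe sets, that of chp had the smallest gap between the lines. The gene encodes chaoptin, an adhesion glycoprotein on the surface of photoreceptors that holds rhabdomere microvilli together. Its Signal was 12844 and 10771 in BG02514 females, 12717 and 11862 in BG02514 males, 10054 and 12906 in BG02257 females and 12577 and 10931 in BG02257 males, against 4731 and 1898 in Canton S B females and 3598 and 4504 in Canton S B males. Every insertion-line array was above every Canton S B array by a wide margin, and the insertion lines overlapped each other. The means were 11833 ± 1109.5 in insertion-line heads and 3683 ± 1287 in Canton S B heads (SD, n = 8 and 4), a log2 difference of 1.76 ± 0.19 (SE), or 3.39-fold, with a limma adjusted p of 0.00152. The difference was 1.79 ± 0.22 in BG02514 and 1.73 ± 0.22 in BG02257, and BG02514 minus BG02257 was 0.06 ± 0.22. In whole heads, fewer cells of a type and less RNA per cell cannot be told apart.

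The other measured genes of photoreceptor structure were not called. Of the 15 genes in the list, chp included, 8 lay above 0 and 7 below. Their median was 0.02, against -0.01 over all 10843 genes with a probe set. Among those not called were crb, a determinant of the apical membrane, and Moe, which links the membrane to actin. Summed over the list, Signals were 18557 to 22142 in insertion-line heads and 9396 to 14060 in Canton S B heads, a sum in which chp has the largest share.

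In the phototransduction list, 2 of 24 measured genes were called, and both were lower in the insertion lines. Over all 10843 genes with a probe set 9 were called, 6 of them lower, each gene read by its brightest probe set. By that rule teq counts as higher, although its probe set 153070_at was called as lower. No test of the list against that background was made. The first, inaD, encodes the scaffold that ties phospholipase C, protein kinase C and the TRP channel into 1 complex. Its Signal was 4071 and 4088 in BG02514 females, 3714 and 4961 in BG02514 males, 5060.4 and 5469 in BG02257 females and 6089.9 and 6153 in BG02257 males, against 7589.8 and 6501 in Canton S B females and 7099 and 9170.4 in Canton S B males. All insertion-line arrays were below all Canton S B arrays, with BG02514 lower than BG02257 in each sex. The means were 4951 ± 931 in insertion-line heads and 7590.0 ± 1144 in Canton S B heads, a log2 difference of -0.63 ± 0.10 (limma adjusted p = 0.0358). It was -0.85 ± 0.12 in BG02514 and -0.41 ± 0.12 in BG02257, and the gap between those lines, -0.44 ± 0.12, did not pass its own test (limma adjusted p = 0.212). The call of inaD was made in 2 of the 12 repeats that each left out 1 array, and not with the BG02257 male arrays averaged to 1 sample (limma adjusted p = 0.0598). It is the smallest of the called differences.

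The second, stops, is a photoreceptor gene known to be needed for the normal level of phospholipase C and for ending the light response. It has 3 probe sets, of which 2 were called. In the brightest, 150928_at, Signals were 1913 and 1619 in BG02514 females, 2126 and 1790.1 in BG02514 males, 1199.9 and 1194 in BG02257 females and 1031 and 1677 in BG02257 males, against 2499 and 2682 in Canton S B females and 3144 and 2588 in Canton S B males. Both lines lay below every Canton S B array, and BG02257 was the lower of them in each sex. Its log2 difference was -0.83 ± 0.12 (limma adjusted p = 0.0228), with -0.55 ± 0.14 in BG02514 and -1.12 ± 0.14 in BG02257.

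In 152099_at, stops had Signals of 1556 and 1378 in BG02514 females, 1980.3 and 1645 in BG02514 males, 798 and 1056 in BG02257 females and 839 and 1233 in BG02257 males, against 2580.1 and 1936 in Canton S B females and 1983 and 2985 in Canton S B males. Groups of the same sex did not overlap here either, but the higher BG02514 male and the lower Canton S B male were nearly equal. The log2 difference was -0.90 ± 0.15 (limma adjusted p = 0.0394). The third, 150929_at, was not called, with -0.37 ± 0.13 (limma adjusted p = 0.757). Its difference was -0.03 ± 0.14 in BG02514 and -0.71 ± 0.14 in BG02257, so the 3 probe sets of stops do not give 1 size. Leaving out each array in turn, the call was made in 4 of 12 repeats for 150928_at and in 2 of 12 for 152099_at.

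The remaining phototransduction genes, among the brightest on the arrays, were not called. Arr2, an arrestin that shuts off rhodopsin, differed by -0.07 on the log2 scale and Arr1 by -0.03. The TRP channel gene trp was at 0.21, retinin, a component of the corneal lens, at 0.36, and laza, a phosphatidic acid phosphatase, at -0.28. Of the 24 genes, 9 lay above 0 and 15 below, with a median of -0.04, near the -0.01 of all genes. Summed Signals of the list were 222518 to 248122 in insertion-line heads and 226931 to 253650 in Canton S B heads, so the groups overlapped.

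An enzyme of eye pigment synthesis was lower in both lines. The gene se, or sepia, encodes a glutathione S-transferase of the omega class that makes a precursor of the red drosopterins. Its Signal was 719.7 and 711 in BG02514 females, 947 and 875 in BG02514 males, 813 and 835 in BG02257 females and 1194 and 1039 in BG02257 males, against 2483 and 1613 in Canton S B females and 2085 and 2691 in Canton S B males. No insertion-line array reached the lowest Canton S B array, and in both lines males were above females. The means were 892 ± 164 in insertion-line heads and 2218 ± 475 in Canton S B heads (SD, n = 8 and 4), a log2 difference of -1.31 ± 0.12, or 2.48-fold lower, with a limma adjusted p of 0.000415. The lines differed little from each other, with -1.43 ± 0.14 in BG02514 and -1.19 ± 0.14 in BG02257.

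Of the 20 eye pigment genes measured, se alone was called, and 7 lay above 0 and 13 below, with a median of -0.14. The pteridine gene pr had a log2 difference of -0.38, the pigment transporter gene st of -0.46 and mal, needed for the molybdenum cofactor, of -1.26, none of them called. Summed Signals of the list overlapped, with 14434 to 17178 in insertion-line heads and 16729 to 19881 in Canton S B heads. Among the 35 glutathione S-transferase genes, se was again the one called. Its neighbours on the chromosome, GstO3, GstO2 and GstO1 of the same class, were at -0.13, -0.26 and 0.11. The gene w, whose eye colour function serves as a transposon marker, has no probe set named here and was not analysed.

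Among metabolic genes, ScsbetaG encodes the beta subunit of the GDP-forming succinyl-CoA synthetase of the citric acid cycle. Its Signal was 394 and 463 in BG02514 females, 499 and 566 in BG02514 males, 361 and 332 in BG02257 females and 382 and 403 in BG02257 males, against 743 and 656 in Canton S B females and 711 and 710.3 in Canton S B males. BG02257 was lowest in each sex, but BG02514 minus BG02257, 0.37 ± 0.13, did not pass its own test (limma adjusted p = 0.399). ScsbetaG differed by -0.75 ± 0.11 on the log2 scale (limma adjusted p = 0.0229), with -0.56 ± 0.13 in BG02514 and -0.94 ± 0.13 in BG02257. A second, dim probe set of ScsbetaG, 142078_at, gave 0.86 ± 0.55 (limma adjusted p = 0.998). The other subunits were not called, with ScsbetaA at 0.22 and Scsalpha1 at 0.06. Of 19 genes of glycolysis and the citric acid cycle, ScsbetaG alone was called, and 11 lay above 0. Its call was made in 5 of the 12 repeats without 1 array.

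CG11899 encodes phosphoserine aminotransferase, an enzyme of serine synthesis, and its mean difference rested mostly on 1 line. Signals were 1881 and 2356 in BG02514 females, 1398 and 1945 in BG02514 males, 749.9 and 609 in BG02257 females and 653 and 447 in BG02257 males, against 2407 and 3877 in Canton S B females and 2026 and 1687 in Canton S B males. BG02257 lay far below both other lines, while BG02514 males overlapped Canton S B males. The log2 difference of both lines together was -1.16 ± 0.16 (limma adjusted p = 0.0154), made up of -0.35 ± 0.19 in BG02514 and -1.98 ± 0.19 in BG02257. BG02514 minus BG02257 was 1.63 ± 0.19 (limma adjusted p = 0.00285). Judged by overlap with Canton S B within each sex, this is the called probe set that both lines do not share. Of the 8 genes of serine synthesis and its use that were measured, 4 lay above 0, and CG6287, the dehydrogenase of the first step, was at -0.05. The phosphatase gene aay, of the last step, was at -0.43 and was not called. The call of CG11899 was made in 7 of 13 other settings, and not with 6 group means or without a variance trend.

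The gene with the most called probe sets was teq, or Tequila, which encodes a serine protease with several binding domains, related to vertebrate neurotrypsin. It has 4 probe sets, and they did not move in 1 direction. In the brightest, 141527_at, Signals were 3214 and 4136 in BG02514 females, 3763 and 4456 in BG02514 males, 1781 and 1848 in BG02257 females and 2227 and 2789 in BG02257 males, against 684 and 1205 in Canton S B females and 1025 and 1356 in Canton S B males. The lines were stepped, with BG02514 highest, BG02257 between and Canton S B lowest, and no overlap. The log2 difference was 1.47 ± 0.15 (limma adjusted p = 0.000882), with 1.90 ± 0.17 in BG02514 and 1.04 ± 0.17 in BG02257. The gap between these lines, 0.86 ± 0.17, was not called (limma adjusted p = 0.0733). In 148446_at, teq had Signals of 2537 and 3377 in BG02514 females, 2335 and 2851 in BG02514 males, 1743 and 1118 in BG02257 females and 844 and 1385 in BG02257 males, against 193 and 703 in Canton S B females and 703 and 436 in Canton S B males. This probe set had the same order of lines, and a log2 difference of 2.03 ± 0.31 (limma adjusted p = 0.0241), the largest among those called. It was called in 5 of the 12 repeats without 1 array.

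The probe set 153070_at of teq went the other way. Signals were 1460.3 and 1587 in BG02514 females, 1455 and 1481 in BG02514 males, 1933 and 1945 in BG02257 females and 2303 and 2182 in BG02257 males, against 3357 and 3309 in Canton S B females and 3526 and 3577 in Canton S B males. The order of lines was turned round, with BG02514 lowest and Canton S B highest, and arrays of a group lay close together. The means were 1793 ± 342 in insertion-line heads and 3442 ± 129 in Canton S B heads (SD, n = 8 and 4). The log2 difference of -0.96 ± 0.08 had the smallest adjusted p of all probe sets (limma, 0.000173). The lines were at -1.20 ± 0.09 in BG02514 and -0.72 ± 0.09 in BG02257, a gap of -0.48 ± 0.09 whose limma adjusted p was 0.0522.

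The fourth probe set of teq, 148445_at, was dim, with Signals of 3.7 to 105 in insertion-line heads and 8.6 to 17.1 in Canton S B heads. Its log2 difference was 2.10 ± 0.69 and was not called (limma adjusted p = 0.741). The value of 3.7 came from BG02257 male 1a alone, and without that array the probe set was called at 2.64 ± 0.37 (limma adjusted p = 0.0183). Thus 2 called probe sets of teq were higher and 1 was lower in the same heads. The sources used here do not give the transcript or exon that each one reads, so no level is given for the gene as a whole.

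The 2 other called genes have no role stated here. CG8004 had Signals of 611 and 600.3 in BG02514 females, 574 and 694 in BG02514 males, 646 and 564 in BG02257 females and 650.0 and 543 in BG02257 males, against 978 and 1170.4 in Canton S B females and 1180.5 and 989.7 in Canton S B males. The insertion lines had like levels, all well below Canton S B. The log2 difference of CG8004 was -0.82 ± 0.11 (limma adjusted p = 0.0102), and lines and sexes differed little in it, with -0.80 ± 0.13 in BG02514 and -0.84 ± 0.13 in BG02257. As for CG11899, its call was not made with 6 group means or without a variance trend.

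CG32523 had Signals of 4128 and 4901 in BG02514 females, 2010.0 and 2414 in BG02514 males, 980.3 and 1017 in BG02257 females and 913 and 1053 in BG02257 males, against 300.4 and 653 in Canton S B females and 837 and 535 in Canton S B males. BG02514 was far above both other lines, and most of all in females, while BG02257 males at 913 came close to a Canton S B male at 837. CG32523 differed by 1.70 ± 0.27 on the log2 scale (limma adjusted p = 0.031), with 2.53 ± 0.31 in BG02514 and 0.86 ± 0.31 in BG02257. The lines differed from each other by 1.67 ± 0.31 (limma adjusted p = 0.0448). The call was made in 3 of the 12 repeats without 1 array, and not with the BG02257 male arrays averaged to 1 sample (limma adjusted p = 0.0621).

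Line by line, BG02514 was further from Canton S B in 7 of the 12 called probe sets and BG02257 in 5. The test of BG02514 against BG02257 called 33 probe sets in all (0.236%), and among the 12 these were CG32523 and CG11899. Against Canton S B, 20 probe sets were called for BG02514 (0.143%) and 14 for BG02257 (0.1%), and both counts use the same 4 Canton S B arrays. In both single-line tests, chp, CG8004, se, and the teq probe sets 141527_at and 153070_at were called. The probe set 148446_at of teq, CG32523 and inaD were called for BG02514, and ScsbetaG, CG11899 and both probe sets of stops for BG02257. A call in 1 line and not in the other is no test of a gap between them, which was called for CG32523 and CG11899 alone among these.

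**Figure D2:**
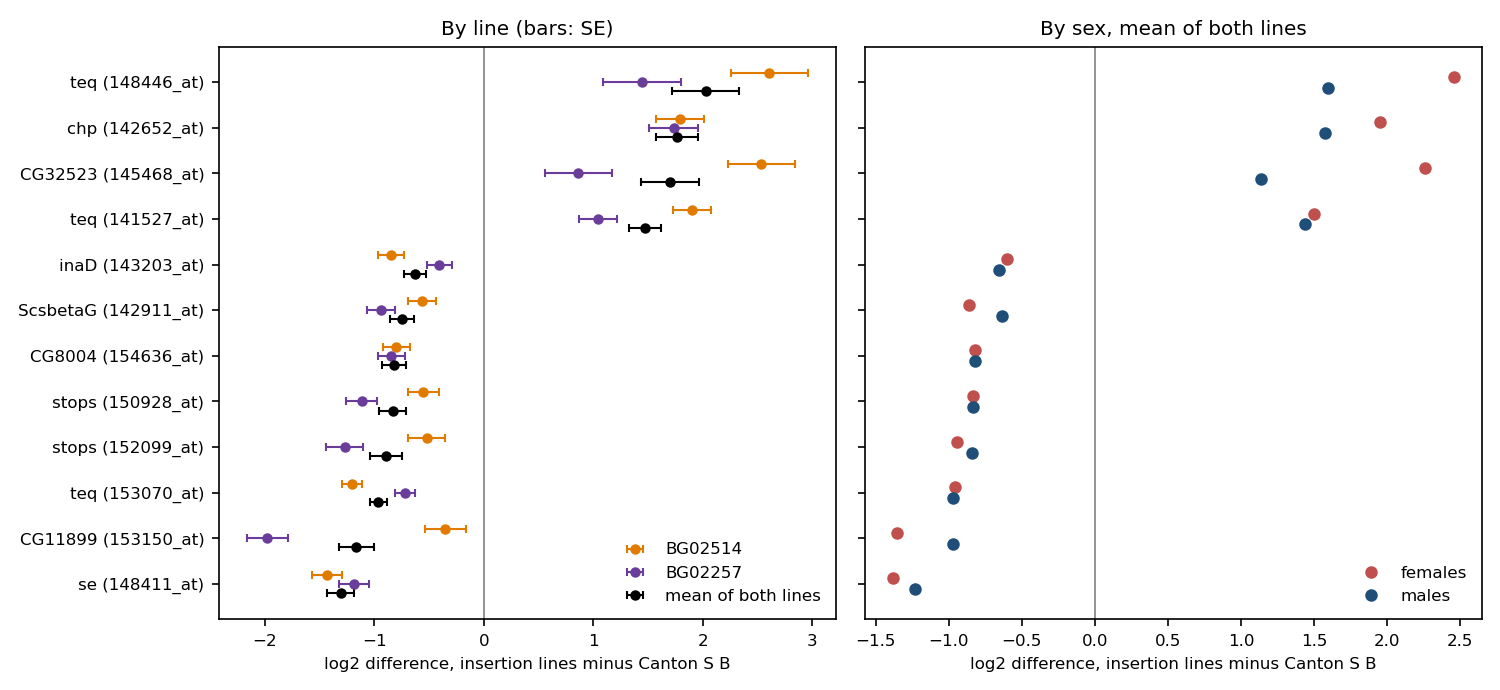
Log2 difference from Canton S B (horizontal axis) of the called probe sets, on the left for BG02514, BG02257 and their mean with SE bars, and on the right for females and males as means of both lines, without error bars. The line estimates of chp and CG8004 nearly coincide, while those of CG32523 and CG11899 lie 1.67 and 1.63 apart.

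No probe set showed a difference between insertion lines and Canton S B that depended on sex. In the limma model with 6 group means the interaction called 0 of 13966 probe sets (0%), with 484 at an unadjusted p under 0.05 where 698 would be expected, and the smallest adjusted p was 0.231. Among the called probe sets the female difference was the larger in size in 10 and the male one in 2. The smallest unadjusted interaction p among them was 0.0151, in CG32523, where the difference was 2.26 in females and 1.14 in males. For se the difference was -1.38 in females and -1.23 in males, and for chp 1.95 in females and 1.58 in males. A model for 1 sex alone called 0 probe sets in either sex, with 886 probe sets at an unadjusted p under 0.05 in females and 402 in males. In simulated arrays the interaction recovered 2% of log2 changes of 1 and 41% of changes of 2, so changes of the first size would mostly go unseen.

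A wider set of probe sets had arrays of both insertion lines on the same side of Canton S B, with no overlap in either sex. There were 130 (0.931%), of which 49 were higher (0.351%) and 81 lower (0.58%). The called probe sets made up 11 of them (0.0788% of those tested), all but that of CG11899. Of the other 119, 71 were at or above the brightness limit of 128.3, and 34 had an absolute log2 difference of at least 1. With so few arrays per sex, such non-overlap also arises by chance, and the number expected by chance was not worked out. The count is therefore no sign of shared differences beyond those called. These probe sets are a description of the arrays and were not called.

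At an adjusted p under 0.1 there were 20 probe sets, and the 8 beyond those called are given because they lie next to the threshold. They were named after their values were seen. Of these, 2 encode antimicrobial peptides of the humoral immune response, drosomycin (Drs), which acts on fungi, and defensin (Def), which acts on bacteria. Drs had Signals of 3861 and 3239 in BG02514 females, 12469.7 and 5732 in BG02514 males, 5198 and 2802 in BG02257 females and 7450.2 and 9078 in BG02257 males, against 1651 and 1813 in Canton S B females and 2890.4 and 4040.0 in Canton S B males. Males were above females in all 3 lines, and within each sex both insertion lines were above Canton S B. The log2 difference of Drs was 1.19 ± 0.20 (limma adjusted p = 0.0501).

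Def had Signals of 619 and 466 in BG02514 females, 461 and 372 in BG02514 males, 586 and 655 in BG02257 females and 655 and 566 in BG02257 males, against 136 and 316 in Canton S B females and 158 and 319.9 in Canton S B males. The groups did not overlap, and the lowest insertion-line array was a BG02514 male. The log2 difference of Def was 1.32 ± 0.23 (limma adjusted p = 0.0699). Where the test was limited to the 8380 probe sets at or above the brightness limit, Drs, Def and CG5653 were called. Of the 14 immune effector genes measured of 37 listed, none was called in the full test, 9 lay above 0, and the median was 0.29. Summed Signals of that list overlapped, with 34695 to 69696 in insertion-line heads and 41337 to 57618 in Canton S B heads.

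The gene slgA encodes proline dehydrogenase, the first enzyme of proline breakdown. Its Signal was 1559 and 1353 in BG02514 females, 1809 and 1561 in BG02514 males, 1340.4 and 1619.7 in BG02257 females and 1845 and 1747 in BG02257 males, against 2304 and 1956 in Canton S B females and 2345 and 3459 in Canton S B males. Within each sex both lines were below Canton S B, at -0.65 ± 0.13 in BG02514 and -0.60 ± 0.13 in BG02257. The log2 difference of both was -0.63 ± 0.12 (limma adjusted p = 0.0813). CG5653 averaged 178 ± 34.8 in insertion-line heads and 346 ± 84.5 in Canton S B heads, a log2 difference of -0.96 ± 0.17 (limma adjusted p = 0.0809).

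Obp99d, of the odorant-binding protein family, averaged 224 ± 119 in insertion-line heads and 65.2 ± 50.5 in Canton S B heads (SD, n = 8 and 4). Canton S B males, at 113 and 105, were above Canton S B females, at 27.1 and 16.2, and came near the lowest insertion-line female, at 123. The log2 difference was 2.10 ± 0.40 (limma adjusted p = 0.0974). Lectin-galC1, a galactose-binding lectin, was dim, with 5.4 to 21.5 in insertion-line heads and 43.4 to 69.8 in Canton S B heads, and its log2 difference was -2.21 ± 0.41 (limma adjusted p = 0.0809). With a pseudocount of 32 the difference of Lectin-galC1 was -0.97 and was called (limma adjusted p = 0.0161), and it was called in 3 other settings at -2.19 to -2.41.

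In the last 2 the lines parted. Vajk4 was dim, with Signals of 3.9 to 26.2 in BG02514 and 26.3 to 78.2 in BG02257, against 43.7 to 153 in Canton S B. Its log2 difference was -3.26 ± 0.41 in BG02514 and -0.93 ± 0.41 in BG02257, and the lines differed (limma adjusted p = 0.0317). The mean difference of Vajk4, -2.09 ± 0.36, was -1.05 with a pseudocount of 32 and was then called (limma adjusted p = 0.0198), as it was without a variance trend. CG8757 had Signals of 12.7 to 16.9 in BG02514 and 123 to 261 in BG02257, against 100.5 to 255 in Canton S B. Its mean difference of -1.77 ± 0.31 thus came from BG02514, at -3.55 ± 0.36, while BG02257 was at 0.00 ± 0.36.

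**Figure D3:**
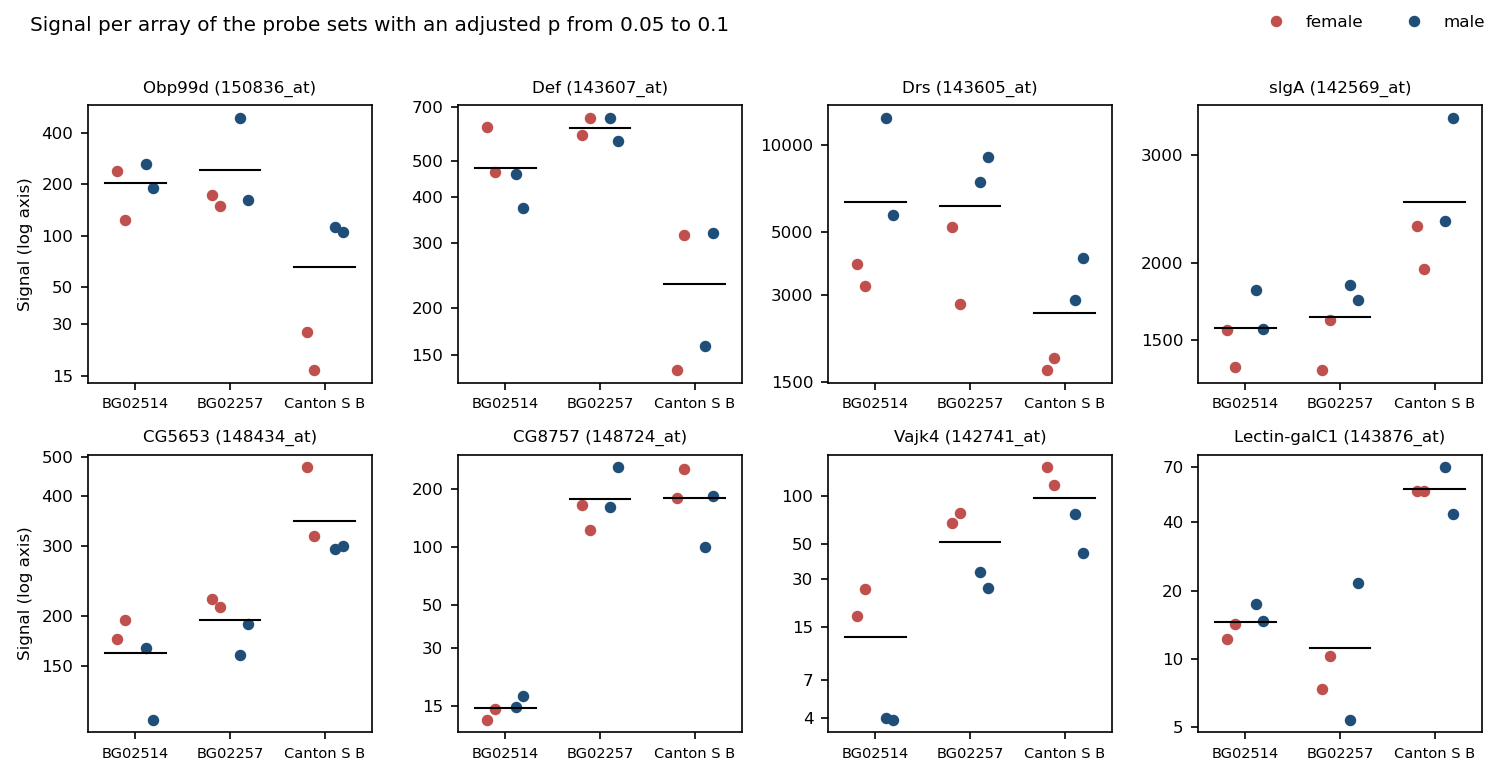
Signal (vertical axis, log scale) on each array of the 8 probe sets with an adjusted p from 0.05 to 0.1, with BG02514, BG02257 and Canton S B from left to right. Red points are females, blue points are males and horizontal lines are line means; in the panel of CG8757 the BG02514 arrays stand apart from both other lines, and in the other 7 both insertion lines are off Canton S B within each sex.

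The called genes lay on 4 chromosome arms. Of the genes measured on each arm in the RefSeq gene order of assembly Release 6 plus ISO1 MT, 1 of 1763 was called on X (CG32523), 1 of 2177 on 2R (inaD), 4 of 2106 on 3L (teq, ScsbetaG, CG8004 and se) and 3 of 2720 on 3R (chp, stops and CG11899). None was called of 1976 on 2L and 57 on 4. The genes chp and stops, which moved in opposite directions, are separated by 3 protein-coding genes, mesh, bnk and CG1544. None of these was called, with log2 differences of 0.53, -0.36 and 0.23. On 3L, se and teq are separated by 76 genes.

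The measured genes next to the called ones, 5 on each side, were examined in the same fit. Apart from the pair chp and stops, none of them was called. With 9 of 10843 genes called in all, so few neighbours would seldom hold a call, and its absence is no result about these regions. Around teq they lay between -0.43 and 0.19, around inaD between -0.36 and 0.52, around ScsbetaG between -0.16 and 0.12 and around CG8004 between -0.48 and 0.16. Around CG32523 they lay between -0.71 and 0.82, around CG11899 between -0.94 and 0.49 and around se between -0.39 and 0.93. The smallest limma adjusted p among neighbours other than chp and stops was 0.15, of ergic53 near se, at 0.77 ± 0.16. The gene mesh, next to stops, averaged 254 ± 49.2 in insertion-line heads and 173 ± 12.8 in Canton S B heads, without overlap in either sex, and was not called (limma adjusted p = 0.741).

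The region in the title showed no called difference, as would most regions of this size at the share called over all genes. Gr5a was dim, with Signals of 53.8 and 64.7 in BG02514 females, 64.3 and 115 in BG02514 males, 56.7 and 87.4 in BG02257 females and 159 and 289 in BG02257 males, against 34.9 and 36.2 in Canton S B females and 138 and 43.6 in Canton S B males. Females of both lines were above Canton S B females, while BG02514 males lay within the Canton S B male range. The log2 difference was 0.83 ± 0.36 (limma adjusted p = 0.949). Its 10 measured neighbours lay between -0.53, in AdamTS-B, and 0.34, in PGAP1, with a smallest adjusted p of 0.95 in limma. Tre1 has no probe set of its own name and was not analysed here.

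**Figure D4:**
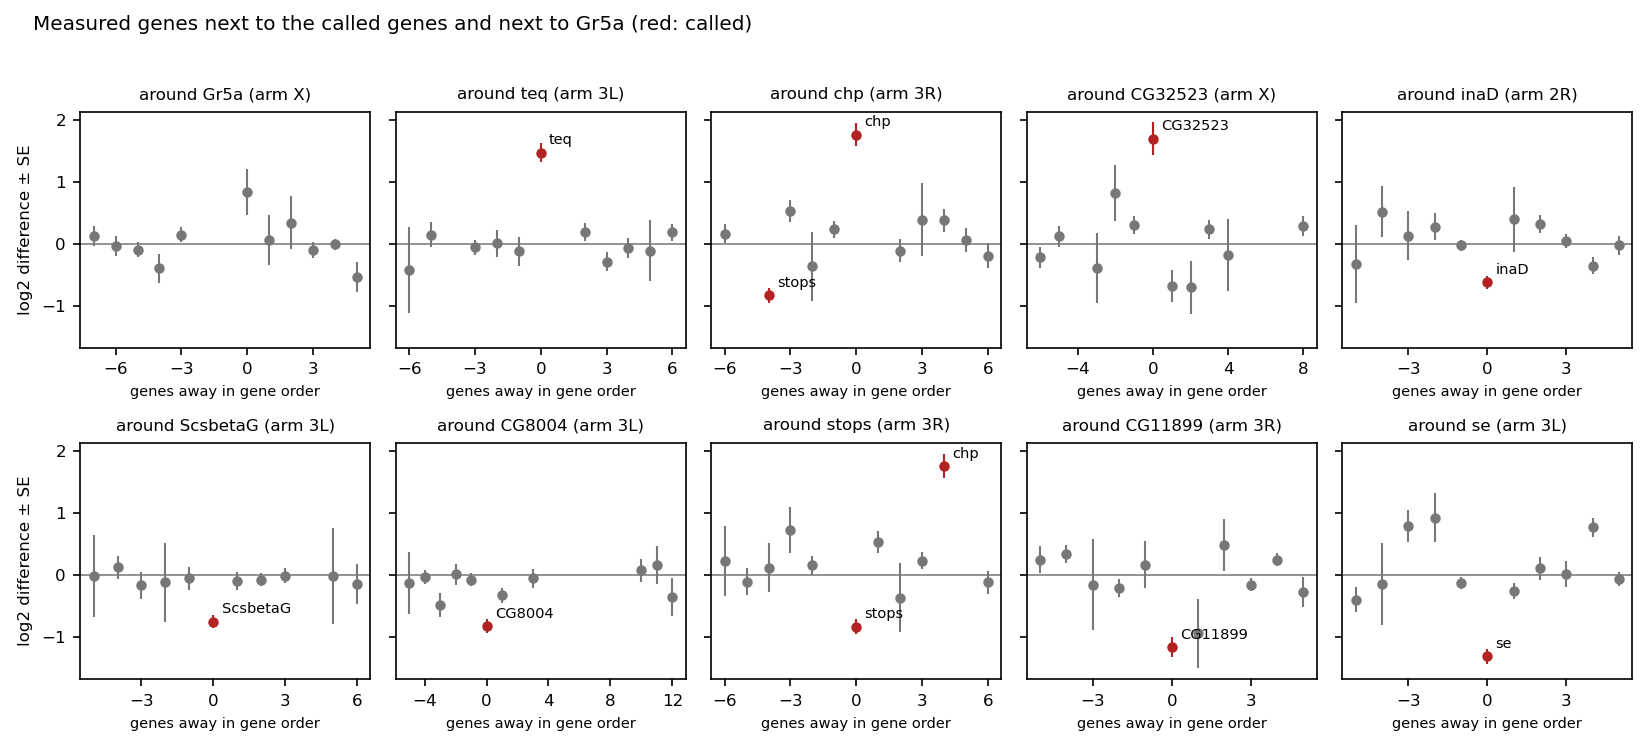
Log2 difference of insertion lines minus Canton S B with SE bars (vertical axis) for Gr5a, each called gene and their 5 measured neighbours on either side, by the number of genes away in gene order (horizontal axis). Red points are called; the grey neighbours scatter around 0, and chp and stops appear in each other's panels on opposite sides of it.

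Across the other gene lists no member was called. Over all 10843 genes with a probe set 9 were called, so most lists of this size would hold none. Gut digestive enzymes had 41 of 51 measured genes above 0 and a median of 0.22, and summed Signals of 12975 to 24297 in insertion-line heads and 12144 to 19031 in Canton S B heads, which overlap. Cytochrome P450 genes, enzymes of detoxification and hormone synthesis, had 61 of 83 above 0 with a median of 0.12. Genes of glia and of hemocytes each had 12 of 16 above 0, with medians of 0.13 and 0.12. Cytosolic ribosomal protein genes had 7 of 37 above 0 with a median of -0.07, and mitochondrial respiratory chain genes 50 of 69 with a median of 0.04. Over all genes, 5183 of 10843 lay above 0.

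Lists of cell types outside the eye showed no called gene either, and with so few calls over all genes this is no result about those cell types. Neurons and synapses had 12 of 26 genes above 0 and a median of -0.01, with summed Signals of 27588 to 33465 in insertion-line heads and 25534 to 34468 in Canton S B heads. Under quantile normalization the sign of that median turned. Muscle was at -0.05, fat body and lipid metabolism at -0.04, ovary and egg at -0.08 and testis and accessory gland at -0.18. Gustatory and odorant receptors, most of them dim, had 63 of 124 above 0 and a median of 0.01.

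**Figure D5:**
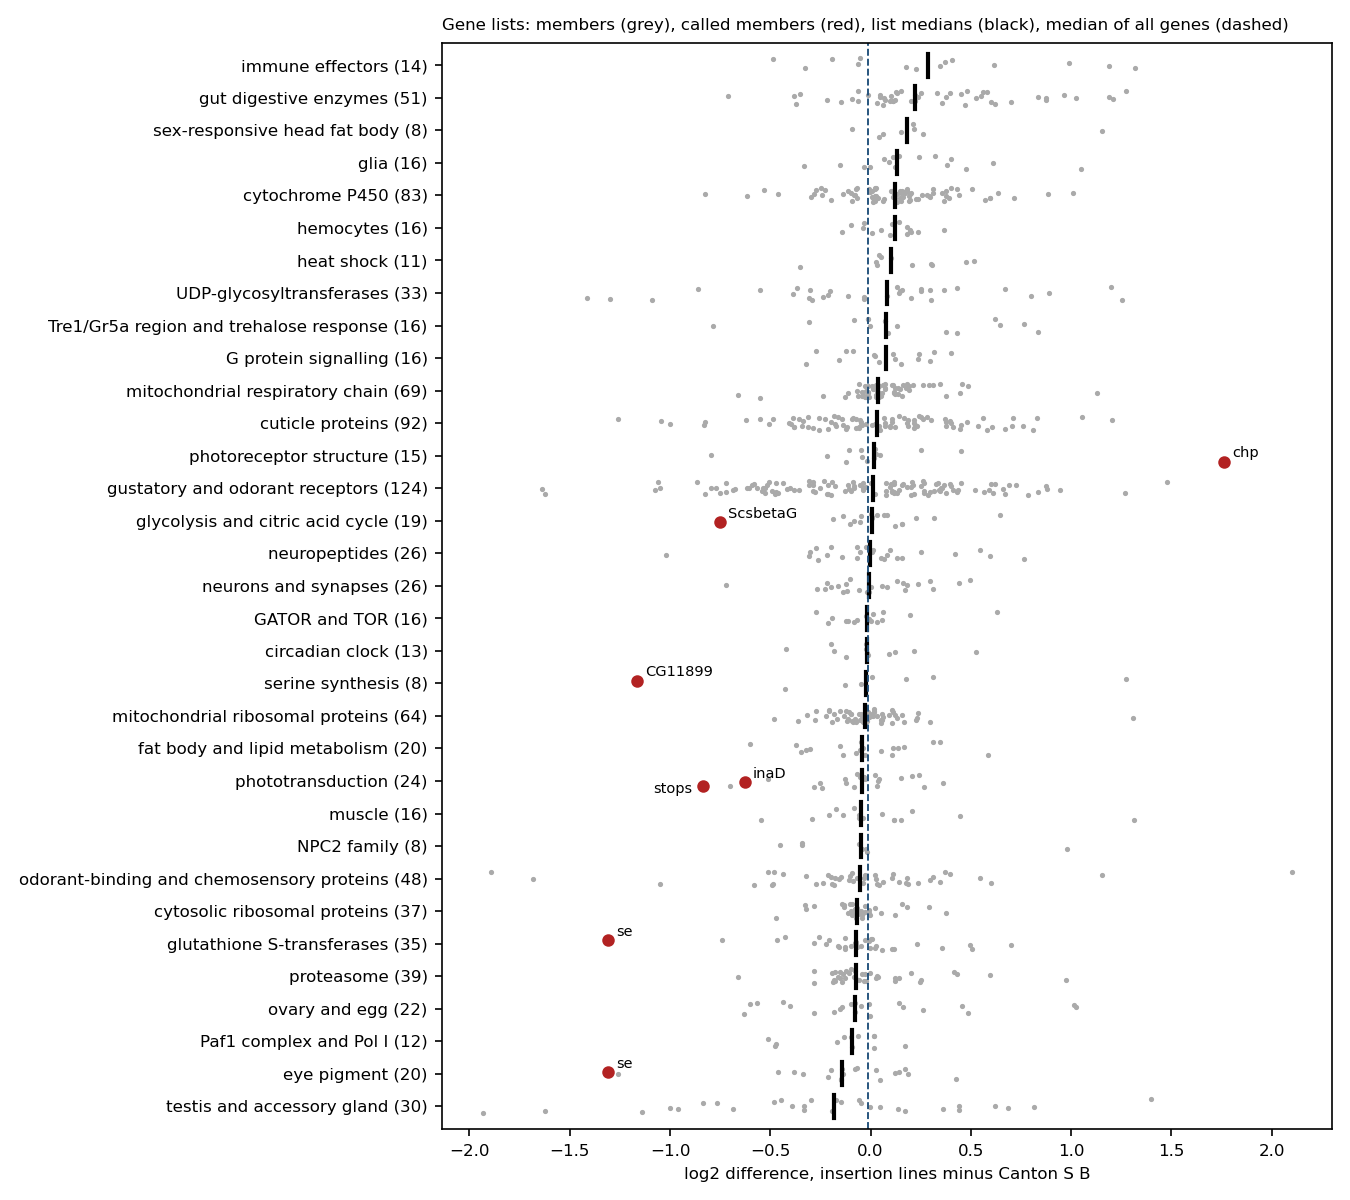
Log2 difference of insertion lines minus Canton S B (horizontal axis) for the measured genes of each list, with the number measured in brackets. Grey points are genes, red points are called genes, black bars are list medians and the dashed line is the median of all genes, -0.01; red points mark chp, ScsbetaG, CG11899, stops, inaD and se, the last under 2 lists, and list medians lie between -0.18 and 0.29.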

How the data were processed

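Head RNA of 12 samples was measured on Affymetrix arrays. Per the labels, the authors made the deposited linear intensities, called Signal, as described for Affymetrix Microarray Suite 5.0. The submitters' processing notes also name GCOS, with no version. Without the lowest and highest 2% of values, the mean was 500.1 on all 12 arrays, which had thus been scaled before deposit. Such scaling takes the trimmed mean to be alike in all samples. No detection calls were used, and the number of arrays limits their precision.

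The table held 14010 probe sets, and without 44 controls 13966 were tested. GEO's platform annotation gave 1 gene symbol for 12442, several for 327 and none for 1197, and 12393 matched a RefSeq gene record of assembly Release 6 plus ISO1 MT. That table gave names, arms and gene order only. The brightest probe set stood for a gene in lists. Each array was scaled to the common trimmed mean and log2 was taken with no pseudocount. The model of line plus sex was fitted in R 4.3.3 with lmFit and eBayes of limma 3.58.1, with a variance trend, 8 residual and 5.16 prior degrees of freedom, and the contrast of the mean of both insertion lines minus Canton S B. The sex dependence came from 6 group means (6 residual and 5.12 prior degrees of freedom). Tests were two-sided, with Benjamini-Hochberg adjustment over 13966 probe sets.

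Named by rule are all called probe sets with the others of their genes, Gr5a and its neighbours, and up to 4 of the brightest members of each list. The other genes in the text (list members such as trp, laza, st, mal, the GstO genes and the Scs subunits, neighbours of called genes, and the probe sets next to the threshold) were chosen after their values were seen. The comparison, the members and the lists were chosen with earlier results of these data known. On simulated arrays with 100 changed probe sets of each size, 49% of log2 changes of 1 and 82% of those of 2 were called in the main contrast, beside 9 false calls (6.43%), and the interaction made 1 false call (2.27%). Replicate numbers shared by 5 groups did not pair samples, since correlations of deviations in 10 pairs of groups lay between -0.08 and 0.07. The labels state a two-way analysis of variance with interaction, which was run as an alternative on both scales, with 11 other settings and the leaving out of each array.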

Additional observations from a re-analysis of the deposited data

Results flagged for a closer look

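In 10 of 204 groups of 4 arrays of 1 line, 1 array lay far from the other 3 by Dixon's test at the 95% level, and chance would give about 10.2. For Gr5a, Canton S B male 1 had 137.6 against 34.9 to 43.6 in the other Canton S B arrays. For cv, 3 genes away in gene order, Canton S B male 2 had 475 against 601 to 623. For Arr2, Canton S B female 1 had 71119 against 55153 to 56264, and for CG5653 the same array had 472 against 295 to 318. In BG02514, male 1 had 3207 for Treh, which encodes trehalase, against 2696 to 2772, and 1807 for pr against 1399.7 to 1463. BG02514 female 2 had 1281 for Npc2b against 1571 to 1603. BG02257 male 1a was the outlying array for Moe, with 2557 against 1969 to 2049, for Ggamma30A, with 3795 against 5068 to 5216, and for Obp99d, with 494 against 148 to 173. None of these belongs to a called probe set.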

How the results depend on the processing

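The count of 12 called probe sets was 15 with the brightness filter, 14 under quantile normalization and 14 with a pseudocount of 32. Robust eBayes gave 13, values as deposited 12, and BG02257 males averaged to 1 sample 11. With 6 group means and without a variance trend it was 5 each, and so was the count that both lines showed (5 each). The two-way analysis of variance of single probe sets called 2 on linear Signal, 1 of them in both lines, and 1 on log2 Signal, in both lines, with 722 and 707 at an unadjusted p under 0.05. Females alone and males alone gave 0 by limma, so 0 in both lines. With the replicate number as a block, 8 were called, 7 of them in both lines where the full comparison had 11, but the numbers did not pair the samples. Leaving out 1 array gave 6 to 14 called and 5 to 12 in both lines. The count was 6 without BG02514 female 2, and 7 without BG02514 female 1, without either female of BG02257, or without female 2 or male 2 of Canton S B. In all 12 such repeats chp, se, CG11899 and the teq probe sets 141527_at and 153070_at were called, and CG8004 in 11, all but that without Canton S B female 2. Of 13 other settings, the teq probe set 153070_at was called in 11, all but the fits of 1 sex, and chp, se and 141527_at in 9, lost also in both analyses of variance. CG11899 and CG8004 were called in 7, lost further with 6 group means and without a variance trend. Averaging the BG02257 males lost inaD and CG32523 and gained Lectin-galC1. No called probe set turned its direction under any setting run. Where the sex dependence was tested, it had 0 calls under all settings except the analysis of variance on linear Signal, with 1. It was not tested with the replicate block, with the BG02257 males averaged or in the analysis of variance on log2 Signal. Npc2h, at 0.98 and not called, was called without Canton S B male 1 (limma adjusted p = 0.00713). All 12 called probe sets lay above the brightness limit, while the dim Lectin-galC1, Vajk4 and teq 148445_at were called under some alternatives. Whether low Signal limits the calls was not tested.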
